A study of Mus musculus with 8 samples.

Results

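Ventricles labelled DKO were compared with ventricles labelled C across all genes of the deposited table that had a level of at least 1 in at least 2 of the 8 libraries. The comparison used 6 of the 8 libraries of the series, 3 per group, and tested 13544 of 13677 genes. The 2 libraries labelled KO served only to estimate the spread between replicates. Libraries are named by group and number, as C 1 to C 3 and DKO 1 to DKO 3.

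The series measured poly(A) RNA of mouse ventricular heart tissue that was wild-type or deficient in Vhl, in a model with Cre recombinase under Wt1. The labels give the same tissue for every sample, state that nothing was administered before extraction, and do not spell out C, KO and DKO. They do not name the second change that the DKO libraries carry, so each direction is one between libraries with these labels. Age, sex, strain, the exons deleted and how many cells of the ventricle Cre reached are not stated in the sources used here. Whether the 3 samples of a group are 3 animals is not stated either. The p-values therefore refer to the spread among these samples, part of which may be technical.

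The von Hippel-Lindau protein is the part of a ubiquitin ligase that recognises hydroxylated alpha subunits of the hypoxia-inducible factors (HIFs) and marks them for degradation when oxygen is present. Wt1 is expressed in the epicardium, the outer cell layer of the heart, whose cells give rise to fibroblasts and mural cells during development, and Cre under Wt1 is used to reach that lineage. In the genes that differed here, several other systems of the heart recur. Immediate early genes such as Fos are transcribed within minutes of a stimulus and without new protein synthesis. Inducible heat shock proteins are made when proteins unfold, and Pdk4 restrains glucose oxidation when fatty acids are the main fuel.

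The libraries held 15028176 to 20561196 reads, and levels are deposited signal values, that is, reads with 0.5 added and scaled to the library, on the scale of CPM. Markers of the labelled tissue were abundant: Myh6, the alpha myosin heavy chain of the adult heart, had levels of 14517 to 24532 over the 6 libraries, and Myl3, the ventricular myosin light chain, 3538 to 7575. The DKO libraries varied more than the C libraries, with a median SD of 0.26 against 0.15 on the log2(level + 1) scale, and 74.2% of genes had the larger SD in DKO. Transcripts of the mitochondrial genome took 23.1% to 29.0% of reads in C and 22.9%, 41.6% and 29.9% in DKO 1, DKO 2 and DKO 3. The mean difference of 5.91 percentage points was within the spread (two-sided exact permutation test, p = 0.5, where 3 against 3 libraries cannot give less than 0.1). DKO 2 stood apart from the other 5 libraries. Its top 10 genes took 51.5% of the reads, and those of the others 31.2% to 38.1%. DKO 3 lay nearest to C, with 99 genes at least 2-fold away from the C mean, against 266 in DKO 1 and 514 in DKO 2.

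Vhl itself (ENSMUSG00000033933, chr6:113623959-113631633, plus strand, GRCm38) was not lower in DKO. Its levels were 8.97, 7.50 and 7.26 in C and 11.2, 10.9 and 8.61 in DKO. The ranges overlapped, since DKO 3 lay below C 1, and the difference was 0.33 ± 0.16 (SE) on the log2(level + 1) scale, with a 95% confidence interval of -0.02 to 0.68 (limma, adjusted p = 0.589). The level over the whole gene did not tell the 2 labels apart. Wt1, the gene that drives Cre in this model, had levels of 2.42, 4.73 and 3.12 in C and 4.85, 6.46 and 3.60 in DKO, again with overlap. All 6 libraries held reads of the Y-linked genes Kdm5d, Uty, Ddx3y and Eif2s3y, and the level of Ddx3y ran from 29.2 to 36.3.

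With limma on log2(level + 1) and a Benjamini-Hochberg adjusted p under 0.05, 21 of the 13544 genes (0.155%) differed between DKO and C. Of these, 10 were higher (0.0738% of tested genes) and 11 were lower (0.0812%). At such shares most gene lists will hold no call, so the absence of calls in a list says little about that list. The higher genes were the immediate early genes Fos, Fosb, Arc and Nr4a1, the inducible heat shock genes Hspa1a and Hspa1b, Pm20d1, Pla2g4e, Foxo6 and the noncoding RNA Gm26917. The lower genes were 8 genes of skeletal muscle (Tnnc2, Tnnt3, Myh4, Myh1, Actn3, Pvalb, Atp2a1 and Ryr1), together with Pdk4, Mt2 and Shld1. In all 21 the 3 DKO libraries lay on one side of the 3 C libraries. Groups that did not overlap were found in 881 genes with DKO higher (6.5% of tested genes) and in 982 with DKO lower (7.25%). Most of these separated genes did not pass the test. With 3 against 3 libraries, some genes separate in this way without a difference between the groups.

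Most genes differed little between the groups. The median difference over all tested genes was 0.01 on the log2(level + 1) scale, with a median SE of 0.19, and the 95% confidence interval lay within 1 either way for 92.7% of genes. An unadjusted p under 0.05 was reached by 1151 genes, 703 with DKO higher and 448 with DKO lower. The smallest difference among the 21 genes was 0.99, that of Nr4a1, and 73 genes differed at least 2-fold in the fit, 33 higher and 40 lower.

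**Figure D1:**
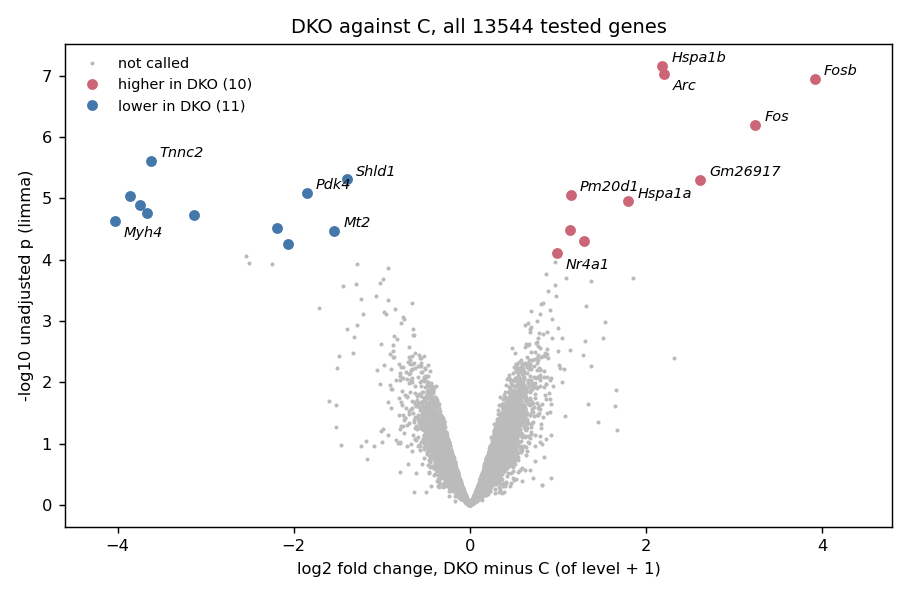
Each point is one of the 13544 tested genes, with the log2 fold change of level + 1, DKO minus C, on the x axis and -log10 of the unadjusted limma p on the y axis. The 10 genes that rose (red) and the 11 that fell (blue) stand above the grey cloud of genes that did not pass; Fosb, at 3.92, lies farthest to the right and Myh4, at -4.03, farthest to the left.

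Fos and Fosb encode subunits of AP-1, a transcription factor formed by FOS and JUN proteins, and Nr4a1 encodes an orphan nuclear receptor that is induced in the same rapid way. Cyclic AMP and calcium signals reach these genes through the cAMP response element (CRE), whose core reads TGACG. The 150 bases before the start sites of Fos, Fosb and Nr4a1 are shown because these genes rose together, with each TGACG on either strand in capitals; on the other strand it reads CGTCA. The sequences are those of RefSeq on GRCm38.p6, written 5′ to 3′ along the gene, at chr12:85473740-85473889 (plus strand) for Fos, chr7:19310046-19310195 (minus strand) for Fosb and chr15:101266696-101266845 (plus strand) for Nr4a1.
Fos: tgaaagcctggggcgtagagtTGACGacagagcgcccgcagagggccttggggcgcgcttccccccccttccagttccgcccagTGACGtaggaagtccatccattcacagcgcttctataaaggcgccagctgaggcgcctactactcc
Fosb: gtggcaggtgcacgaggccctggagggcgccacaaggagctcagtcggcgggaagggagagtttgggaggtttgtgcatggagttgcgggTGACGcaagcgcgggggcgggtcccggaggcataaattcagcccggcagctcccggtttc
Nr4a1: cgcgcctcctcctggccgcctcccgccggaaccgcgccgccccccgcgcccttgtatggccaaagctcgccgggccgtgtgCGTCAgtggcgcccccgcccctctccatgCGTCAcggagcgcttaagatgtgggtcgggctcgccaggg
The matches begin 129 and 66 bases before the RefSeq start site in Fos, 60 in Fosb, and 69 and 40 in Nr4a1, and overlap no match of the other 2 motifs searched. For Nr4a1 that start site lies inside the annotated span of the gene given below. Of 32851 promoter windows of the same length in the RefSeq table, 13.3% hold at least 1 match. Among the related genes that did not pass the test, the Junb window holds 1 match and the Jun window 0. These are matches of letters and not measured binding sites.

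Fos rose from single-digit levels to levels above 25 in DKO. It (ENSMUSG00000021250, chr12:85473890-85477273, plus strand) had levels of 3.77, 5.39 and 1.45 in C and 59.2, 35.6 and 27.9 in DKO. The lowest DKO library exceeded the highest C library, and the group means were 3.54 ± 1.98 (SD, n = 3) and 40.9 ± 16.3 (SD, n = 3). The difference was 3.24 ± 0.34 (SE) on the log2(level + 1) scale (limma, adjusted p = 0.00213). Fosb (ENSMUSG00000003545, chr7:19302696-19310051, minus strand) went from near the detection limit, with 8, 17 and 10 reads in C, to 853, 333 and 219 reads in DKO. As levels these were 0.520, 1.05 and 0.649 in C and 39.2, 31.5 and 12.6 in DKO, a difference of 3.92 ± 0.35 (SE) (limma, adjusted p = 0.000504). In both genes DKO 1 was highest and DKO 3 lowest of the DKO libraries.

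Arc, an activity-regulated cytoskeletal protein best known as an immediate early gene of neurons, rose from 1.60 ± 0.208 (SD, n = 3) to 11.0 ± 1.72 (SD, n = 3). The gene (ENSMUSG00000022602, chr15:74669083-74672570, minus strand) had levels of 1.81, 1.60 and 1.39 in C and 9.12, 12.5 and 11.4 in DKO. The 3 DKO libraries were close to each other here, and the difference was 2.20 ± 0.19 (SE) (limma, adjusted p = 0.000504). Nr4a1 (ENSMUSG00000023034, chr15:101254269-101274795, plus strand) had levels of 9.09, 8.89 and 6.70 in C and 18.1, 18.7 and 15.01 in DKO. Its rise of 0.99 ± 0.17 (SE) was the closest of the 21 to the threshold (limma, adjusted p = 0.0496). The calls of Fos and Arc held under all 24 alternative settings, and that of Fosb under 23, with an adjusted p of 0.0813 by voom. The call of Nr4a1 held under 10, and leaving out C 1, C 2, C 3, DKO 1, DKO 2 or either KO library ended it, with adjusted p up to 0.265 without C 3.

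The list of AP-1 and EGR genes had 10 tested members, of which 2 rose, Fos and Fosb, and 0 fell. Its median difference was 0.90, against 0.01 over all tested genes. The groups did not overlap in 6 members, each time with DKO higher, against 6.5% of all tested genes. Junb had levels of 21.7, 27.1 and 16.8 in C and 75.6, 60.0 and 42.0 in DKO (limma, adjusted p = 0.0959). Jun had levels of 31.4, 34.6 and 31.0 in C and 71.6, 55.8 and 52.7 in DKO (limma, adjusted p = 0.0835). Egr1, a zinc finger transcription factor of the early response, had levels of 23.8, 24.2 and 11.0 in C and 80.9, 67.6 and 31.6 in DKO (limma, adjusted p = 0.243). In all 3 the DKO libraries lay above the C libraries, and none of the 3 passed over all libraries. Without DKO 3, Egr1, Junb and Jun passed, with limma adjusted p of 0.0308, 0.0324 and 0.0355. DKO 3 had the lowest level of the DKO libraries in 10 of the 10 members.

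A second list, of NR4A genes and other early response genes, had 34 tested members, of which 2 rose, Arc and Nr4a1, and 0 fell, with a median of 0.05. Socs3, a feedback inhibitor of cytokine signalling, had levels of 3.46, 4.55 and 4.73 in C and 25.3, 20.4 and 11.0 in DKO, a difference of 1.86 ± 0.35 (SE) that did not pass (limma, adjusted p = 0.0909). Nr4a3, a close relative of Nr4a1, had the opposite sign, with levels of 1.32, 2.08 and 0.834 in C and 0.391, 0.708 and 0.605 in DKO (limma, adjusted p = 0.569). Ccn1, a matricellular protein induced by serum and stretch, had levels of 24.6 to 32.3 in C and 40.3 to 48.5 in DKO (limma, adjusted p = 0.374). The members of this list were split in sign: 21 of 34 had a positive and 13 a negative difference.

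**Figure D2:**
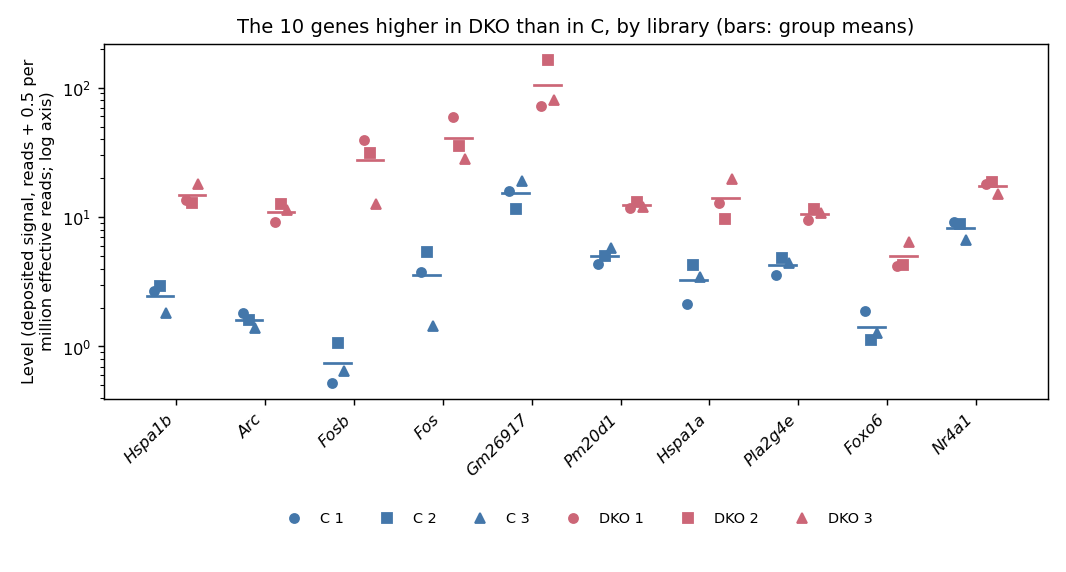
Levels of the 10 genes that rose in DKO, on a log axis in units of the deposited signal, with C libraries in blue, DKO libraries in red, symbols for the library number and bars for the group means. In each gene the 3 DKO libraries lie above the 3 C libraries; the gap is widest for Fosb (means 0.741 and 27.8) and narrowest in fold for Nr4a1 (means 8.23 and 17.3).

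Hspa1a and Hspa1b encode nearly identical forms of the inducible heat shock protein of the HSP70 family, which refolds proteins after heat and other stress. The heat shock factor binds repeats of the unit GAA in alternating orientation, and the pair of units searched here reads GAANNTTC, which is the same on both strands. The 150 bases before the 2 start sites are shown because both copies rose and because their windows differ at 1 of 150 bases; capitals mark the match. They are from RefSeq on GRCm38.p6, at chr17:34972157-34972306 (minus strand) for Hspa1a and chr17:34959239-34959388 (minus strand) for Hspa1b.
Hspa1a: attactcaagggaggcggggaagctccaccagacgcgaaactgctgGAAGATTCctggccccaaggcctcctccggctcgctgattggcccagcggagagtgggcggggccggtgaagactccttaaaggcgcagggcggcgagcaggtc
Hspa1b: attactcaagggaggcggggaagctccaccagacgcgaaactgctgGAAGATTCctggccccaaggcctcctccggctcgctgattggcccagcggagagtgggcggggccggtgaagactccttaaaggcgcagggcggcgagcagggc
In both, the match begins 104 bases before the start site and overlaps no match of the other motifs. Among the 32851 windows, 3.95% hold this motif. Over the whole 300 bases of the table's entries the 2 genes differ at 4 bases.

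Both genes rose in all 3 DKO libraries. Hspa1b (ENSMUSG00000090877, chr17:34956436-34959238, minus strand) had levels of 2.66, 2.92 and 1.82 in C and 13.4, 12.9 and 18.1 in DKO. Its difference was 2.19 ± 0.19 (SE), the smallest p of the comparison (limma, adjusted p = 0.000504). Hspa1a (ENSMUSG00000091971, chr17:34969190-34972156, minus strand) had levels of 2.11, 4.25 and 3.43 in C and 12.9, 9.67 and 19.6 in DKO, a difference of 1.80 ± 0.25 (SE) (limma, adjusted p = 0.0139). DKO 3 was the highest DKO library for both, unlike for Fos and Fosb, where it was the lowest. Reads can be split between near-identical copies, so the 2 levels are not independent. The call of Hspa1b held under all 24 alternatives, while that of Hspa1a ended without C 1 (adjusted p = 0.0787), without C 3 (adjusted p = 0.0597) and by voom.

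Among the inducible chaperones no other gene passed. Of 22 inducible heat shock genes 2 rose and 0 fell, and the median was -0.26. In 7 members the groups did not overlap with DKO lower, and in 2, Hspa1a and Hspa1b, with DKO higher. Over all tested genes the shares were 7.25% and 6.5%. Hsp90aa1, the inducible cytosolic HSP90, had levels of 90.6, 82.2 and 79.4 in C and 69.7, 67.9 and 66.0 in DKO (limma, adjusted p = 0.588). Dnajb1, the HSP40 partner of HSP70, had levels of 9.30 to 10.3 in C and 7.81 to 14.1 in DKO, with overlap. Dnajb4, a related co-chaperone, had levels of 35.5 to 41.3 in C and 18.2 to 32.8 in DKO (limma, adjusted p = 0.452). Among 24 other heat shock genes 0 passed, with a median of -0.13 and a smallest limma adjusted p of 0.569. DKO 2, the library with the largest share of mitochondrial reads, was the lowest DKO library in 19 of the 22 inducible members.

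Skeletal muscle genes fell in DKO, among them Myh4, with the largest difference of the 21 genes. Of 13 tested genes of the fast contractile apparatus 6 fell and 0 rose, and of 9 genes of skeletal excitation and calcium handling 2 fell and 0 rose. The medians were -2.51 and -0.64, against 0.01 over all tested genes. All 13 fast contractile members had a negative difference. In 12 the groups did not overlap with DKO lower, against 7.25% of all tested genes. The genes that fell encode the fast myosin heavy chains Myh4 and Myh1, the fast troponins Tnnc2 and Tnnt3, the Z-disc actinin Actn3 of fast fibres, the calcium buffer Pvalb, the fast fibre calcium pump Atp2a1 and the skeletal calcium release channel Ryr1.

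Myh4 (ENSMUSG00000057003, chr11:67238029-67260446, plus strand) had levels of 66.5, 17.4 and 128 in C and 3.24, 4.77 and 0.490 in DKO, a difference of -4.03 ± 0.60 (SE) (limma, adjusted p = 0.0213). Pvalb (ENSMUSG00000005716, chr15:78191114-78206400, minus strand) had levels of 33.2, 7.68 and 60.8 in C and 1.03, 0.991 and 0.490 in DKO, a difference of -3.86 ± 0.53 (SE) (limma, adjusted p = 0.0126). Both show the pattern of the group: every DKO library was low, and the C libraries were spread widely, with C 2 lowest and C 3 highest. Tnnc2 (ENSMUSG00000017300, chr2:164777161-164779967, minus strand) had levels of 31.8, 9.25 and 48.8 in C and 1.03, 1.46 and 0.778 in DKO, a difference of -3.63 ± 0.43 (SE) (limma, adjusted p = 0.00658). Tnnt3 (ENSMUSG00000061723, chr7:142498836-142516009, plus strand) had levels of 38.7, 9.37 and 73.4 in C and 2.09, 1.84 and 0.720 in DKO, a difference of -3.66 ± 0.53 (SE) (limma, adjusted p = 0.0179). An exon of Tnnc2 overlaps Ube2c on the other strand, and since the strand setting of the counting is not given in the sources used here, reads of the 2 genes may not be told apart.

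Atp2a1 (ENSMUSG00000030730, chr7:126445858-126463108, minus strand) had levels of 41.5, 11.6 and 81.3 in C and 1.63, 3.07 and 0.720 in DKO (-3.74 ± 0.53 SE, limma, adjusted p = 0.0143). It overlaps an exon of Rabep2 on the other strand. Actn3 (ENSMUSG00000006457, chr19:4861216-4877909, minus strand) had levels of 16.3, 5.27 and 32.5 in C and 0.896, 1.18 and 0.317 in DKO (-3.13 ± 0.46 SE, limma, adjusted p = 0.0179). Myh1 (ENSMUSG00000056328, chr11:67200052-67224575, plus strand) had 78, 34 and 136 reads in C and 6, 3 and 0 reads in DKO. For the 0 reads in DKO 3, the level of 3 reads, 0.173, was taken as the upper bound. The difference of Myh1 was -2.19 ± 0.34 (SE) (limma, adjusted p = 0.0255). Ryr1 (ENSMUSG00000030592, chr7:29003344-29125179, minus strand) had 78, 39 and 157 reads in C and 6 in each DKO library, a difference of -2.06 ± 0.34 (SE) (limma, adjusted p = 0.0373). These 2 genes rest on the fewest reads of the 8, and floors of this kind cover counting error only.

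The order C 2, C 1, C 3 from low to high was shared by 10 of the 13 fast contractile genes, and the summed level of the list was 362, 171 and 600 in C 1, C 2 and C 3 against 83.1, 62.6 and 96.4 in DKO. Mylpf and Tnni2, a fast myosin light chain and a fast troponin, followed the same order but did not pass (limma, adjusted p = 0.0536 and 0.0618). Mybpc2, the fast myosin-binding protein C, did not follow it, with levels of 25.9, 40.7 and 35.0 in C and 5.86, 6.37 and 21.9 in DKO (limma, adjusted p = 0.182). Casq1, the skeletal calsequestrin, likewise had its highest C level in C 2, with 19.1, 24.0 and 22.5 in C and 9.95, 5.14 and 12.5 in DKO (limma, adjusted p = 0.151). Scn4a, the skeletal muscle sodium channel, had the opposite sign, with 5.23, 5.76 and 9.73 in C and 12.4, 11.9 and 12.5 in DKO (limma, adjusted p = 0.489). These genes are markers of skeletal muscle, and the part that skeletal muscle in the dissected samples had in the difference was not tested. In bulk tissue, fewer cells of a type and less RNA per cell cannot be told apart. All 8 calls ended without C 1, with limma adjusted p of 0.0522 to 0.164, and all 8 by voom. Leaving out DKO 2 ended 6 of them (Pvalb, Tnnt3, Actn3, Myh4, Myh1 and Ryr1), leaving out C 3 ended 3 (Myh4, Myh1 and Ryr1), and leaving out DKO 1 or either KO library ended those of Myh1 and Ryr1. Robust variance estimation ended the calls of Pvalb, Tnnt3, Atp2a1 and Myh4, with limma adjusted p of 0.0975 to 0.333. Weighting the libraries and a pseudocount of 4 each ended those of Pvalb, Tnnt3, Actn3, Myh1 and Ryr1.

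**Figure D3:**
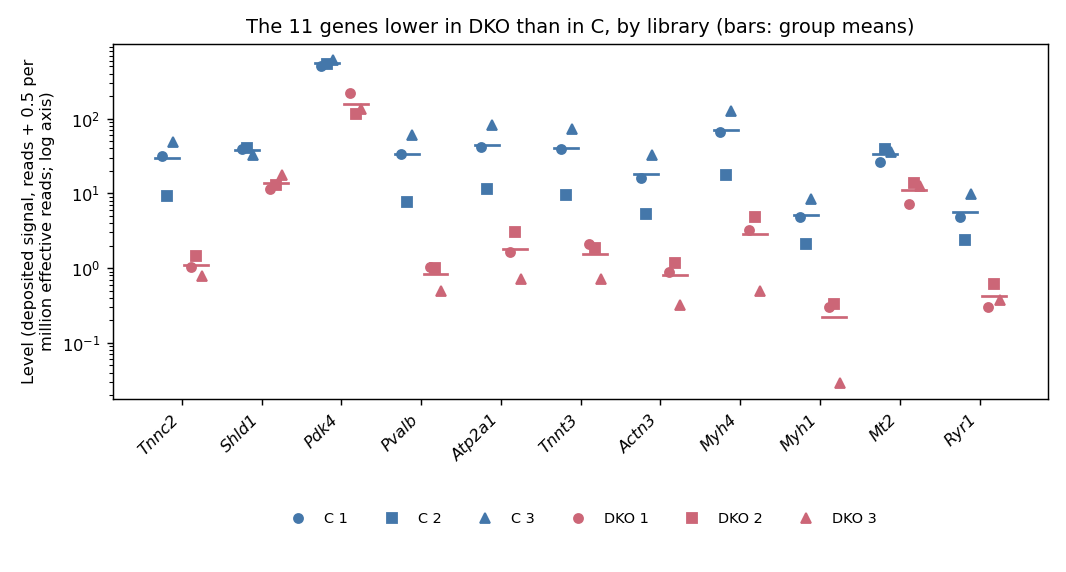
Levels of the 11 genes that fell in DKO, on a log axis in units of the deposited signal, with C libraries in blue, DKO libraries in red, symbols for the library number and bars for the group means. In the 8 skeletal muscle genes C 2 is the lowest C library throughout, while Shld1, Pdk4 and Mt2 have C libraries close together.

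Pdk4 encodes a kinase that switches off the pyruvate dehydrogenase complex and so spares glucose when fatty acids are burned. It fell in all 3 DKO libraries. Its levels (ENSMUSG00000019577, chr6:5483351-5496309, minus strand) were 500.4, 536 and 607 in C and 219.7, 116 and 134 in DKO. The C libraries were tight, with a mean of 548 ± 54.5 (SD, n = 3) against 157 ± 55.3 (SD, n = 3), and the difference was -1.85 ± 0.25 (SE) (limma, adjusted p = 0.0126). The call ended without C 1 (adjusted p = 0.0659) and without C 3 (adjusted p = 0.0661). Pdk4 was the only one of 14 tested genes of the pyruvate dehydrogenase complex and its regulation to pass. The median of these 14 was -0.29, and it was 0.03 without DKO 2. The kinase genes Pdk1 (56.1, 73.7 and 64.3 in C, 52.1, 34.4 and 78.0 in DKO) and Pdk2 (343, 399 and 376 in C, 397, 248 and 389 in DKO) had overlapping groups.

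Pdk4 is a target of the fatty acid receptors of the PPAR family, and the other genes of fatty acid use did not pass. Of 40 tested genes of fatty acid oxidation and PPAR targets 0 rose and 0 fell, while 37 had a negative difference. In 17 of the 40 the groups did not overlap with DKO lower, against 7.25% of all tested genes. The median of the list was -0.41, and -0.19 without DKO 2, so its size rests in part on that library. Acot1, a cytosolic thioesterase that frees fatty acids from coenzyme A, had levels of 28.6, 32.7 and 32.5 in C and 21.8, 10.7 and 15.6 in DKO (limma, adjusted p = 0.191). Angptl4, a secreted inhibitor of lipoprotein lipase, had levels of 109.5, 72.2 and 91.2 in C and 68.5, 50.8 and 22.0 in DKO (limma, adjusted p = 0.454). Plin5, a lipid droplet protein of oxidative tissue, had levels of 127, 153 and 145 in C and 113, 54.0 and 103 in DKO (limma, adjusted p = 0.549). In each of the 3 genes the DKO libraries lay below the C libraries. Ucp3 and Cpt1b, both also controlled by PPARs, had overlapping groups.

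Pdk4 is also induced by fasting and glucocorticoids, and a list of such genes had 25 tested members. Of these 1 rose, Foxo6, and 0 fell, with a median of -0.45. In 11 members the groups did not overlap with DKO lower, against 7.25% of all tested genes. Cebpb, a transcription factor of the acute phase and of fat cell formation, had levels of 72.6, 100.3 and 72.5 in C and 38.5, 29.3 and 35.8 in DKO (limma, adjusted p = 0.200). Cdkn1a, the cell cycle inhibitor p21, had levels of 29.5, 38.4 and 27.2 in C and 17.5, 20.8 and 13.3 in DKO (limma, adjusted p = 0.186). Glul, glutamine synthetase, had levels of 161, 187 and 149 in C and 83.2, 92.6 and 113 in DKO (limma, adjusted p = 0.245). These 3 genes had C libraries above all DKO libraries without passing. Unlike the fatty acid list, this list had similar means in the 3 DKO libraries, at -0.37, -0.43 and -0.37 relative to the C mean on the log2(level + 1) scale. Fkbp5, a classic glucocorticoid target, was 9.64, 20.4 and 10.3 in C and 7.61, 7.60 and 5.68 in DKO (limma, adjusted p = 0.632).

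Foxo6, a forkhead transcription factor of the FOXO family that insulin signalling restrains, rose from low levels. It (ENSMUSG00000052135, chr4:120267079-120287349, minus strand) had 30, 18 and 20 reads in C and 91, 45 and 110 reads in DKO, as levels 1.87, 1.12 and 1.27 against 4.21, 4.29 and 6.37. The groups did not overlap and the difference was 1.29 ± 0.21 (SE) (limma, adjusted p = 0.0352). Leaving out any C or KO library, DKO 1 or DKO 2 ended the call, with adjusted p up to 0.169 without C 3.

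Mt2 encodes a metallothionein, a small protein that binds zinc and copper and is induced by metals through the metal response element. Its promoter window is shown because Mt2 fell. Capitals mark matches on either strand of TGCNCNC, a loose pattern searched here for the core of this element. On the other strand the pattern reads GNGNGCA. The 150 bases are from RefSeq on GRCm38.p6, at chr8:94172468-94172617 (plus strand).
Mt2: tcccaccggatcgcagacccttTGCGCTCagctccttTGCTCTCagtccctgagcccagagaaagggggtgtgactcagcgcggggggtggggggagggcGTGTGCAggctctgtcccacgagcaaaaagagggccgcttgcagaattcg
The 3 matches begin 128, 113 and 50 bases before the RefSeq start site. They are matches of a loose pattern, so not each need be a core of the element, and not measured binding sites. Among the 32851 windows 31.4% hold at least 1 match and 1.66% hold at least 3.

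Mt2 (ENSMUSG00000031762, chr8:94172664-94173568, plus strand) had levels of 26.1, 38.8 and 36.3 in C and 7.24, 13.7 and 12.5 in DKO. All DKO libraries lay below the lowest C library, and the difference was -1.54 ± 0.24 (SE) (limma, adjusted p = 0.0258). An exon overlaps Gm45774 on the other strand. The call ended without C 1, C 2, C 3 or DKO 1, with adjusted p up to 0.155 without C 3. Mt1, the neighbouring metallothionein gene, had levels of 278, 347 and 282 in C and 142, 155 and 175 in DKO, a difference of -0.93 ± 0.17 (SE) that did not pass (limma, adjusted p = 0.0697). Of 15 tested metallothionein and zinc transport genes 1 fell and 0 rose, and the median was 0.14. The zinc exporter gene Slc30a1, which responds to the same metal sensor, had levels of 15.3, 15.9 and 15.7 in C and 14.8, 15.1 and 7.98 in DKO (limma, adjusted p = 0.670).

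Shld1, a subunit of the shieldin complex that protects the ends of DNA breaks from resection, fell in DKO. The gene (ENSMUSG00000044991, chr2:132686931-132751055, plus strand) had levels of 39.8, 41.0 and 33.1 in C and 11.3, 12.8 and 17.8 in DKO. With groups well apart, the difference was -1.40 ± 0.18 (SE) (limma, adjusted p = 0.00975), and the call ended in 1 of 24 alternatives, without C 1 (adjusted p = 0.0728).

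Pm20d1 is a secreted enzyme that joins and splits fatty acids and amino acids. It (ENSMUSG00000042251, chr1:131797381-131821473, plus strand) had levels of 4.32, 5.03 and 5.72 in C and 11.8, 12.98 and 12.0 in DKO, a rise of 1.15 ± 0.16 (SE) (limma, adjusted p = 0.0126). The DKO libraries agreed closely, with an SD of 0.07 on the log2(level + 1) scale, and the call ended only without C 1 (adjusted p = 0.0876) among the 24 alternatives. Pla2g4e, a cytosolic enzyme of the phospholipase A family that forms N-acyl phospholipids, also rose. It (ENSMUSG00000050211, chr2:120166412-120245335, minus strand) had levels of 3.58, 4.79 and 4.42 in C and 9.40, 11.5 and 10.7 in DKO, a rise of 1.13 ± 0.18 (SE) (limma, adjusted p = 0.0258). The call of Pla2g4e ended without C 1, C 2, C 3 or DKO 2, with adjusted p up to 0.170 without C 1.

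Gm26917, annotated as a long intergenic noncoding RNA (ENSMUSG00000097971, chr17:39843013-39846341, plus strand), had levels of 15.8, 11.5 and 18.9 in C and 71.9, 163 and 80.1 in DKO. All DKO libraries lay above C, and the difference was 2.62 ± 0.34 (SE) (limma, adjusted p = 0.00975). The call ended without C 1 (adjusted p = 0.0591). The annotated gene Gm42418 lies 616 bases away on the same chromosome and had levels of 122, 96.5 and 130 in C and 230, 473 and 219 in DKO (1.31 ± 0.28 SE, limma, adjusted p = 0.171). For both genes DKO 2 was the highest library, the one with 41.6% mitochondrial reads, and the part of library composition in this difference was not tested.

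**Figure D4:**
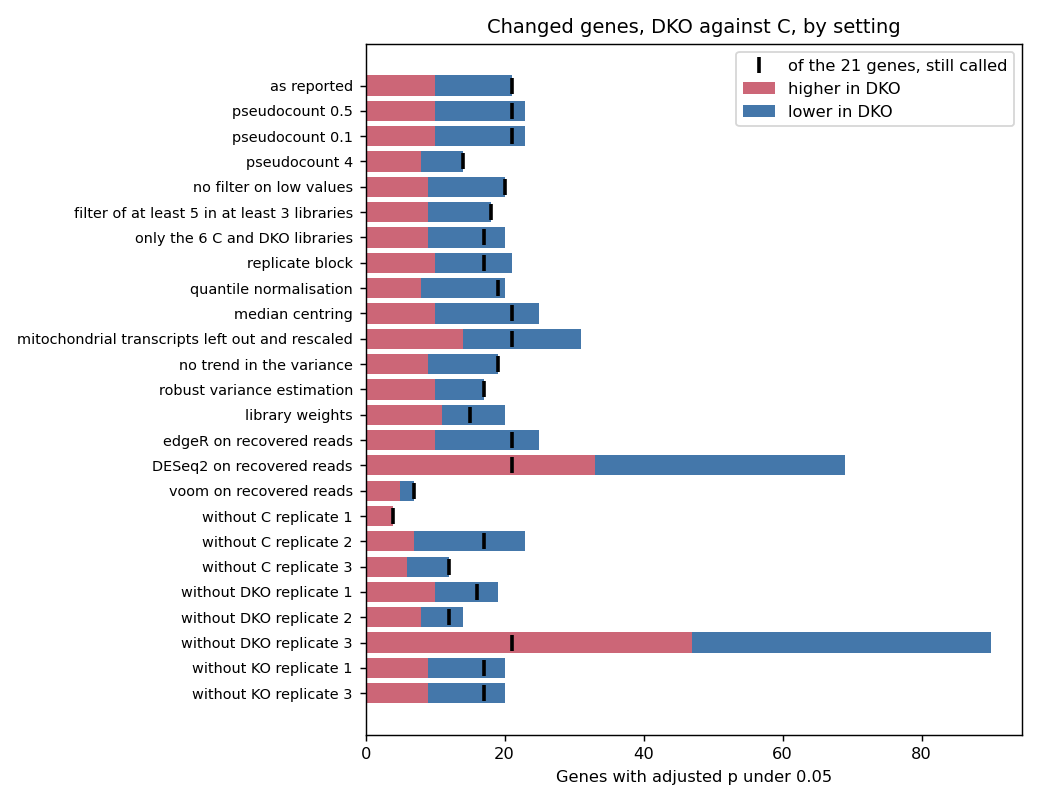
Number of genes with an adjusted p under 0.05, higher in DKO (red) and lower in DKO (blue), under each setting, with a black mark for how many of the 21 reported genes were called in that setting. The count runs from 4 without C replicate 1 to 90 without DKO replicate 3, and 21 of the 21 genes are among those 90.

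The number of genes that passed depended on single libraries. Without C 1, 4 genes passed: Fos, Fosb, Arc and Hspa1b. Without DKO 3, 90 genes passed (0.665% of tested genes), 47 higher and 43 lower, and they included all 21. Among the well-expressed genes that were called in addition without DKO 3 were C3, the central complement component (40.3, 40.0 and 30.9 in C, 113, 71.4 and 35.0 in DKO), and Vwf, the endothelial clotting factor (93.6, 73.3 and 52.1 in C, 178, 159 and 78.4 in DKO). Cenpf, a centromere protein of dividing cells (9.95, 7.93 and 9.11 in C, 35.9, 20.1 and 12.5 in DKO), and Cacna1h, a T-type calcium channel (12.6, 9.25 and 14.1 in C, 29.1, 27.3 and 14.4 in DKO), were called in the same way. In each of these 4 genes DKO 3 lay close to or within the C range while DKO 1 and DKO 2 were higher.

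Of the lower genes called in addition, some had DKO 3 on the other side of C. Acta1, the skeletal alpha-actin that is also a fetal gene of the heart, had levels of 285, 513 and 518 in C and 60.3, 111 and 860.4 in DKO. Ptgds, a prostaglandin synthase of the heart and brain, had levels of 192, 240.2 and 246 in C and 39.1, 102 and 346 in DKO. For both, DKO 1 and DKO 2 lay below and DKO 3 above every C library, and over all libraries the limma adjusted p was 0.641 and 0.630. Abra, an actin-binding activator of serum response factor (23.7, 28.3 and 19.7 in C, 8.48, 8.54 and 19.3 in DKO), and Tmem82 (75.7, 63.3 and 103 in C, 23.6, 32.2 and 41.2 in DKO) lay below C in every DKO library. Nppb, the gene of B-type natriuretic peptide and a marker of ventricular wall stress, was among the genes with the widest DKO spread. It was 195, 174 and 190.0 in C and 21.4, 109 and 228 in DKO. For Nppb the DKO libraries lay on both sides of the C libraries, with DKO 1 far below and DKO 3 above, and no direction can be given.

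Of 13 tested genes of VHL, its ligase partners, the HIF subunits and the HIF hydroxylases 0 passed, against 0.155% of all tested genes. The median of this HIF pathway list was -0.15, and the smallest limma adjusted p was that of Vhl, 0.589. Hif1a had levels of 31.7, 27.2 and 30.5 in C and 31.4, 22.3 and 27.1 in DKO (-0.15, 95% confidence interval -0.52 to 0.22). Epas1, which encodes HIF-2 alpha, had levels of 347, 299.9 and 308 in C and 319, 324 and 239 in DKO (-0.13, 95% confidence interval -0.50 to 0.25). Egln3, a HIF hydroxylase that is itself a HIF target, had levels of 35.3, 41.5 and 44.1 in C and 57.1, 38.9 and 50.3 in DKO (limma, adjusted p = 0.687). In each of the 3 the groups overlapped, and the intervals of Hif1a and Epas1 leave out a 2-fold change either way. In 4 of the 13 members, Eloc, Rbx1, Hif3a and Egln2, the groups did not overlap with DKO lower, against 7.25% of all tested genes. Of the 13 members, 11 had a negative and 2 a positive difference.

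Of 47 tested hypoxia-inducible genes 0 passed, against 0.155% of all tested genes, and the median was -0.08. In 4 the DKO libraries lay above and in 4 below every C library, against 6.5% and 7.25% of all tested genes. Tfrc, the transferrin receptor, had levels of 47.5, 52.9 and 38.8 in C and 72.7, 62.5 and 65.8 in DKO (limma, adjusted p = 0.505). Bnip3, a mitochondrial autophagy receptor, had levels of 106, 117 and 94.7 in C and 83.0, 52.5 and 86.2 in DKO (limma, adjusted p = 0.530). Differences in this list had both signs, 19 positive and 28 negative.

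Stromal cell markers mostly had positive differences, without a call. All 20 tested fibroblast genes had a positive difference, 0 passed, and the median was 0.37. The median was 0.36 for 36 matrix genes, 0.31 for 12 epicardial genes, 0.29 for 22 macrophage genes, 0.52 for 10 neuron and glia genes and 0.20 for 16 mural genes, with 0 calls in each. For 20 endothelial genes it was 0.14, and -0.07 without DKO 2. Cd248, a surface protein of fibroblasts and pericytes, had levels of 6.83, 6.66 and 5.59 in C and 14.2, 16.2 and 8.96 in DKO (limma, adjusted p = 0.187). Mfap4, a microfibril protein, had levels of 13.4, 13.05 and 8.74 in C and 20.4, 25.1 and 16.5 in DKO (limma, adjusted p = 0.326). Col1a1, the fibrillar collagen gene, had levels of 70.1, 65.1 and 55.3 in C and 129, 111.5 and 54.8 in DKO (limma, adjusted p = 0.591). DKO 3 was the lowest DKO library in 19 of 20 fibroblast, 34 of 36 matrix and 18 of 20 endothelial genes, and the mean of the fibroblast list stood at 0.67, 0.61 and -0.06 relative to the C mean in DKO 1, DKO 2 and DKO 3. In DKO 3 the mean was also negative for the matrix (-0.06), epicardial (-0.06), neuron and glia (-0.11), mural (-0.22) and endothelial (-0.27) lists. For the macrophage list it was 0.04 in DKO 3. The summed level of the fibroblast list was 1663 to 2577 in C and 1884.5 to 4294 in DKO, so the sums overlapped. Whether cell composition had a part in any call was not tested.

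Genes of heart muscle and nuclear genes of mitochondrial respiration mostly had negative differences, without a call. Of 58 nuclear genes of oxidative phosphorylation all 58 had a negative difference and 0 passed, with a median of -0.36. In 28 the groups did not overlap with DKO lower, against 7.25% of all tested genes. The mean of this list stood at -0.25, -0.77 and -0.09 relative to C in DKO 1, DKO 2 and DKO 3. DKO 2 was the lowest DKO library in 56 of the 58, and without it the median was -0.18. Ndufv1, the subunit of complex I that binds NADH, had levels of 870.1, 925 and 874 in C and 712, 439 and 726 in DKO (limma, adjusted p = 0.579). The 15 tricarboxylic acid cycle genes had a median of -0.43, and -0.16 without DKO 2. The 13 protein-coding transcripts of the mitochondrial genome had a median of 0.39 with 0 calls, and DKO 2 was the highest DKO library in all 13. With mitochondrial transcripts left out and the libraries rescaled, the median of the nuclear respiration genes was -0.35. Of 31 ventricular myocyte genes 0 passed, 24 had a negative and 7 a positive difference, and the median was -0.28. The mean of the myocyte list stood at -0.17, -0.62 and 0.14 relative to C in DKO 1, DKO 2 and DKO 3. DKO 2 was the lowest DKO library in 27 of the 31.

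Cardiac stress genes, which include fetal myosin and natriuretic peptides, gave 0 calls among 25 tested members, against 0.155% of all tested genes. The median of this list was -0.23. Gdf15, a stress-induced hormone, had levels of 5.42, 5.64 and 4.17 in C and 0.758, 2.03 and 1.87 in DKO, a difference of -1.28 ± 0.23 (SE) just short of the threshold (limma, adjusted p = 0.0618). Myh7, the beta myosin heavy chain, had levels of 109, 115 and 71.9 in C and 51.2, 40.7 and 81.1 in DKO (limma, adjusted p = 0.466). Nppa, which encodes the atrial natriuretic peptide, was 220.3, 429.9 and 246 in C and 245, 194 and 428 in DKO, with full overlap.

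**Figure D5:**
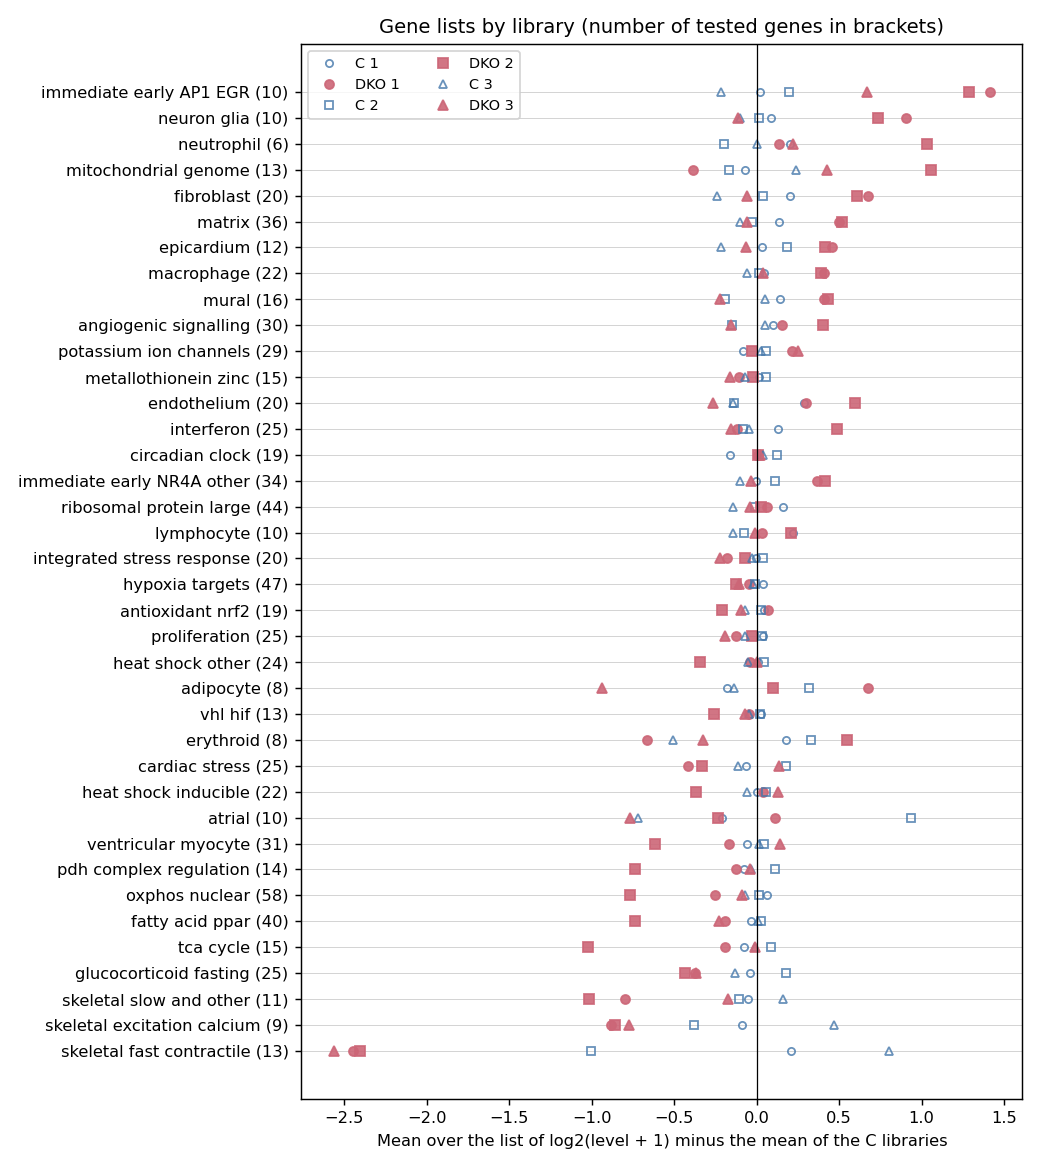
Mean over each gene list of log2(level + 1) minus the mean of the C libraries, for every C library (open blue) and DKO library (filled red), with the lists sorted by their median difference and the number of tested genes in brackets. The fast skeletal muscle list lies near -2.5 in all 3 DKO libraries, the AP-1 and EGR list lies above all C libraries, and in the fibroblast and matrix lists DKO 3 lies among the C libraries.

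Values near the edges of the 2 cut-offs were as follows. The genes next beyond the adjusted p of 0.05 were Mylpf at 0.0536 and Gm10435, Tnni2, Gdf15 and the fast fibre Z-disc gene Myoz1 at 0.0618, and Nr4a1 at 0.0496 was the last inside it. At the minimum level, 248 tested genes reached 1 in exactly 2 libraries, with a median highest level of 1.63, and 108 genes that reached it in 1 library were left out, with a median highest level of 1.298.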

How the data were processed

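Poly(A) RNA of 8 ventricular samples was read on a NovaSeq instrument, per the labels' protocols. Cutadapt, RSEM 1.3.1, limma and GRCm38 are listed, per the submitters' processing notes, with no step named. The sources used here do not state the annotation or the strand setting. The deposited table holds a normalised signal made by the authors, on the scale of CPM. From the values, each is a number of reads plus 0.5 over an effective library size, and 100% of values gave whole reads within a tolerance of 0.001. RSEM can split reads between near-identical copies.

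Levels were analysed as log2(value + 1) with limma 3.58.1 in R 4.3.3. The model had 3 group means over 8 libraries, 5 residual degrees of freedom and a variance trend with intensity. Benjamini-Hochberg adjustment ran over 13544 genes at 0.05. Fold changes on this scale understate those of low genes. The recovered reads were tested with edgeR 4.0.16, DESeq2 1.42.0 and voom as alternatives, beside other pseudocounts, filters and scalings and each library left out. The scripts were checked on simulated data.

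The comparison, its members and the 38 gene lists were chosen with earlier results of these data known. Lists were described by counts and medians, without a test of the list. The genes named are those called, the VHL and HIF genes, the 4 smallest p of each list, the largest changes not called whose groups did not overlap, genes called without DKO 2 or DKO 3, those of largest DKO spread and the 10 next below the threshold. Some genes of the lists and the Y-linked genes were named after their values were seen. Positions are from GENCODE M21, where 13666 of 13677 identifiers matched; 11 rows have no name. Promoters are from RefSeq GRCm38.p6, which held 15 of the 21 called genes. Groups were taken from sample titles. Some genes covered by this rule are not reported here.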

Additional observations from a re-analysis of the deposited data

How the results depend on the processing

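Against the 21 genes reported, 69 were called by DESeq2 (33 higher, 36 lower) and 7 by voom (5 higher, 2 lower). edgeR on the recovered reads called 25. The number of lower genes was 6 with a pseudocount of 4, 17 with mitochondrial transcripts left out, and 7 with robust variance estimation. With only the 6 C and DKO libraries the calls of Myh1, Foxo6, Ryr1 and Nr4a1 ended, with limma adjusted p of 0.0503 to 0.0749. These 4 calls therefore rest on the KO libraries in the estimate of the spread. Leaving out 1 library at a time gave 4 to 90 genes, 4 to 47 higher and 0 to 43 lower, with the lowest counts without C replicate 1 and the highest without DKO replicate 3; 12 were called without C replicate 3 and 14 without DKO replicate 2. The cause of these shifts was not tested. No named gene that was called changed sign under any alternative run. The mean difference in the share of mitochondrial reads was 0.835 to 10.2 percentage points with 1 library left out.

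The labels do not say whether replicate numbers pair the samples. Deviations of same-numbered C and DKO libraries correlated at 0.191, -0.274 and 0.14, and those of other pairs at -0.363 to 0.212. With 3 libraries per group these values cannot decide whether the numbers mark a pairing. With the replicate block 21 genes were called, of which 17 were among the 21 reported. At these depths 3 reads correspond to a level of 0.138 to 0.283, which was taken as the upper bound where 0 reads were found. A higher level is less likely to give 0 reads but is not excluded.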

Other observations

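Genes of the circadian clock gave 0 calls among 19 tested members, and the sign of their median (0.05) changed with quantile normalisation and with single libraries left out. Dbp, a clock output factor, had levels of 35.6, 72.1 and 48.5 in C and 91.3, 84.1 and 74.9 in DKO (limma, adjusted p = 0.452). Per1, a clock repressor that also responds early to stimuli, had levels of 13.3, 29.4 and 19.9 in C and 8.80, 16.8 and 12.4 in DKO (limma, adjusted p = 0.671). Cacna1g, a T-type calcium channel, had levels of 19.1, 20.5 and 22.0 in C and 24.3, 29.7 and 28.8 in DKO (limma, adjusted p = 0.549), and of 29 channel genes 0 passed, with a median of 0.16. Carns1, which makes carnosine, had levels of 40.1, 43.3 and 64.7 in C and 76.6, 109 and 106 in DKO (limma, adjusted p = 0.138).

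Timp4, a metalloproteinase inhibitor abundant in the heart, had levels of 129, 111 and 88.4 in C and 46.5, 34.1 and 33.3 in DKO, a difference of -1.50 ± 0.45 (SE) that did not pass (limma, adjusted p = 0.452). Chac1, a glutathione-degrading enzyme of the integrated stress response, had levels of 3.46, 5.70 and 5.41 in C and 1.40, 2.12 and 1.76 in DKO (limma, adjusted p = 0.138). In both genes every DKO library lay below every C library. The atrial list had its highest mean in C 2, at 0.93 relative to the C mean, against -0.21 and -0.72 in C 1 and C 3, and its median of -0.28 became 0.27 without C 2. C 2 was also the lowest C library in the 8 skeletal muscle genes that fell.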
